A study of Macaca nemestrina with 15 samples.

Results

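The data described here are the 5 libraries labelled as pre-treatment, with treatment given as Control, out of 15 RNA-seq libraries in the study. They were chosen by that label alone. Each library holds the peripheral blood mononuclear cells (PBMCs) of a different female pig-tailed macaque (Macaca nemestrina), taken before the first of 12 planned weekly oral doses of islatravir (ISL, a nucleoside reverse transcriptase translocation inhibitor developed against HIV) at 30 mg/kg. By this label no animal had yet received ISL in the study, and no separate untreated arm was part of it. The ages of the animals are not given in the sources used here. The 10 later libraries of the same animals were not analysed here. With 1 library an animal, the spread between libraries holds differences between animals, between blood draws and between library preparations together, and no test between groups was possible.

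PBMCs are the blood cells that stay above the density layer when blood is centrifuged. They are mostly T cells, with natural killer (NK) cells, B cells, monocytes and small numbers of dendritic cells, and they usually carry along platelets, a few red cells and a few granulocytes. T cells recognise antigen through a receptor joined from many gene segments and signal through the CD3 chains. B cells recognise it through immunoglobulin, which they secrete once they become plasma cells. Monocytes and dendritic cells take up microbes and show their peptides on MHC molecules. The make-up of this mixture and the state of each cell type differ from animal to animal, and a bulk library records both at once.

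The animals are named by their identifiers, and values for all 5 are given in the order Z15228, Z13076, Z15339, Z15303 and Z15408. Libraries held 7909621 to 10379572 counts on features and detected 15934 to 16556 of the 28865 features in the table. Levels are in CPM, counts as a share of a common library size, after TMM scaling, a correction for library composition. Z15408 had the smallest total and the largest scaling factor (1.12), and Z15228 had the largest total and the smallest factor (0.933). The names of 3 libraries, those of Z15339, Z15303 and Z15408, carry the date 30 May, while Z15228 carries 9 May and Z13076 carries 16 May. The libraries labelled week12 carry dates 56 or 57 days after those of the same animals' pre-treatment libraries, where 12 weeks are 84 days, so the dates and the labels do not match if the dates mark blood draws. What the date marks is not stated, so values among the 3 animals of the same date are given beside the values over all 5.

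Counts were spread over many features, and the leading named ones were genes of the cytoskeleton, antigen presentation and iron storage. The 50 leading features held 17.7% ± 2.55 of the counts (SD, n = 5), and 733 features held 50% of them. ACTB, a cytoskeletal actin, took 2.22% ± 0.278, B2M, the light chain of MHC class I, took 1.65% ± 0.185, and CD74, the invariant chain of MHC class II, took 0.997% ± 0.302. TMSB4X, which binds actin monomers, took 0.876% ± 0.156, and FTL, the ferritin light chain, took 0.593% ± 0.12. These shares depend on transcript length as well as on the number of molecules, so they do not rank genes by molecules.

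Lineage genes stood among the 20 leading features too. GZMB, a granzyme of cytotoxic cells, took 0.333% ± 0.0876. PPBP, a platelet chemokine precursor, took 0.245% ± 0.0654, and HLA-DRA, the alpha chain of HLA-DR, took 0.24% ± 0.0632. PSAP and CTSB, which act in lysosomes, FLNA, an actin cross-linker, ITGB2, the beta chain of leukocyte integrins, and LAPTM5, a lysosomal membrane protein of blood cells, were also in this set. Of the 20, 16 had a gene symbol. The membership was only partly shared, since 10 features were among the 20 leading ones of all 5 animals and 33 features were in that set in at least 1 animal.

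The leading feature without a symbol, ENSMNEG00000042383, differed most between animals among the abundant ones. Its levels were 52754, 12505, 4739, 10123 and 2825 CPM. Z15228 was far above the other 4 libraries, which differed among themselves as well, and over the 5 animals the feature took 1.58% ± 1.9 of the counts. The next such feature, ENSMNEG00000034835, was at 5433, 5473, 4784, 5935 and 4436 CPM and was nearly level across animals. The files do not pair these identifiers with names.

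**Figure D1:**
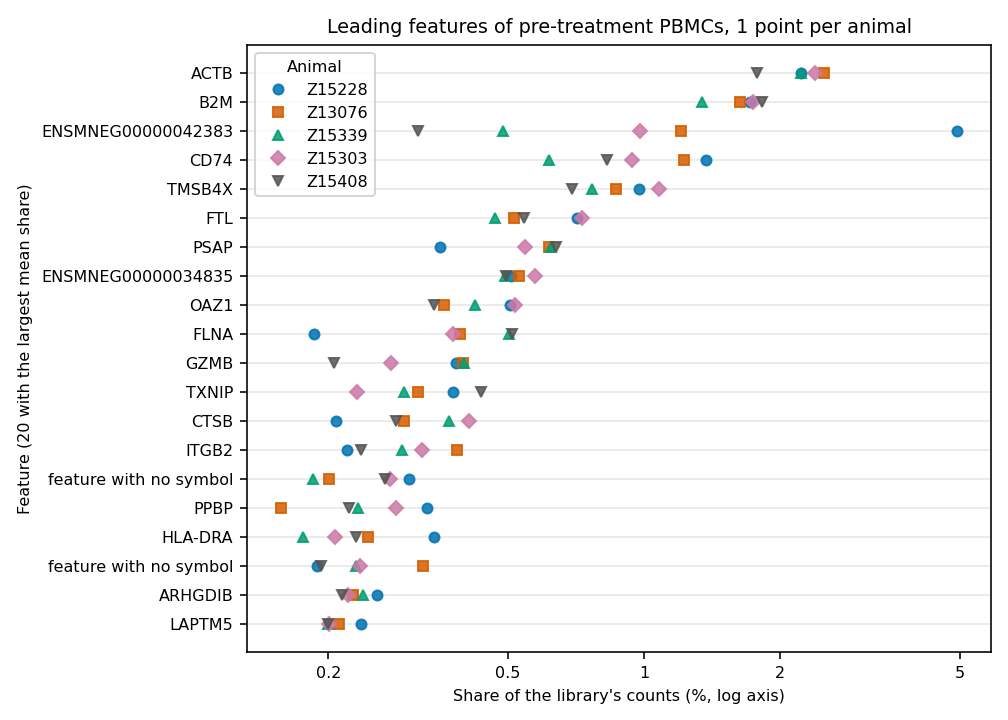
Share of each library's counts (%, log axis) taken by the 20 features with the largest mean share, with 1 point per animal. ACTB and B2M lie close together in all 5 animals, while ENSMNEG00000042383 spans the widest range, with Z15228 at the top.

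Most genes differed by less than 2-fold between the animals. Over the 12698 features with a mean count of at least 10, the median SD of log2 CPM was 0.31, and the median feature was 1.70-fold higher in its highest animal than in its lowest. The median SD that counting error alone gives was 0.10, and the SD found was a median of 3.01 times that of counting error. A range of at least 2-fold was found for 4237 features (33.4%). The common biological coefficient of variation, edgeR's estimate of the spread left after counting error, was 28.9%. A range of at least 4-fold was found for 1001 features, 7.88% of those examined, and for 540 (4.25%) among the 3 animals of the same date. The share was 24.9% at mean counts of 10 to 50, 1.96% at 200 to 1000, and 5.22%, or 12 of 230 features, in the class with the highest counts. Rare transcripts thus filled most of the 4-fold set, and at low counts part of the range is counting error.

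The 10 least variable features were those with the smallest SD at a mean count of at least 200. Among them, G3BP1, a stress granule protein, was at 178, 180.3, 178, 185 and 183 CPM, with an SD of log2 CPM of 0.02. CELF2, a splicing regulator of lymphocytes, was at 153, 157, 156, 159 and 159 CPM, and NONO, a nuclear RNA-binding protein, at 268, 259, 270.1, 259 and 267 CPM. RBM22, PHF10, RPRD1B, NIT1, CDC42SE1 and MKRN1 were in the same set. The highest and lowest animals of these genes differed by 1.04-fold to 1.06-fold. They were picked as the smallest of many SDs, which can fall below counting error. For CD3G, with a mean of 186 CPM, counting error alone gives an SD of 0.035, above the SD found for G3BP1. These ranges are therefore not a measure of how steady the genes are. Of 7 common reference genes, 0 had a 4-fold range, but GAPDH was at 2174, 2109, 1541, 2106 and 1270.2 CPM and YWHAZ at 1012, 910.0, 568, 901 and 588 CPM, wider than TBP at 29.6, 31.6, 32, 26.8 and 31.1 CPM.

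**Figure D2:**
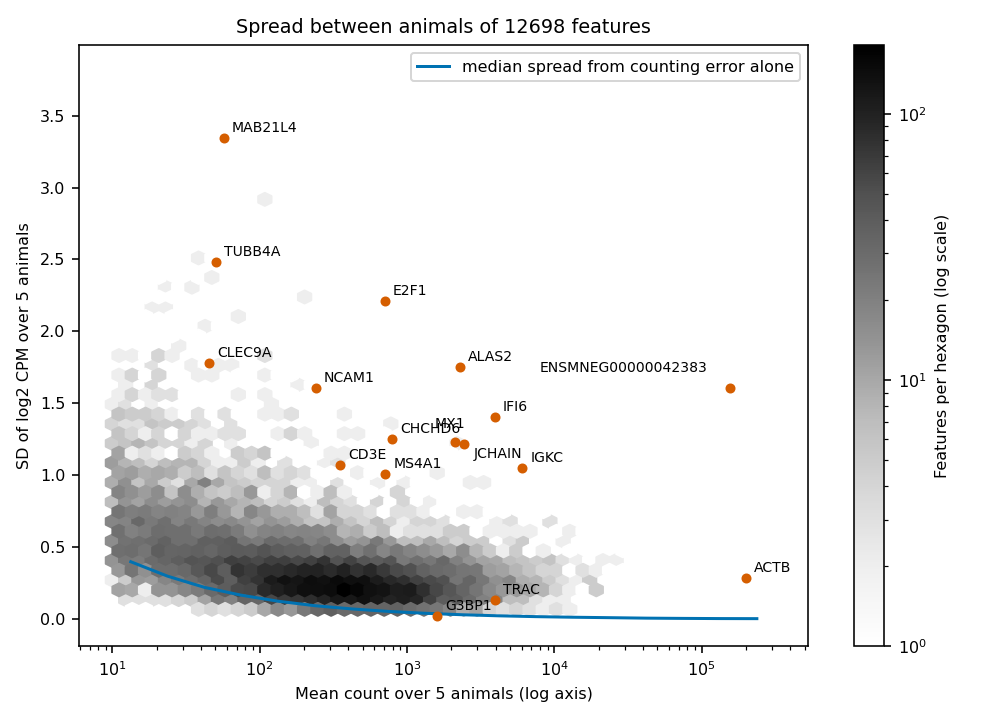
SD of log2 CPM over 5 animals against the mean count (log axis) of 12698 features, shaded by the number of features, with the spread from counting error alone as a line and named features as points. ENSMNEG00000042383, IGKC, IFI6 and ALAS2 lie far above the bulk of features with like counts, while G3BP1 and TRAC lie near its lower edge.

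Over the whole profile Z15408 was the farthest from the others. The median absolute difference in log2 CPM was 0.34 to 0.44 in its 4 pairs with other animals and 0.25 to 0.32 in the other 6 pairs. Pearson's r of log2 CPM across features was 0.935 to 0.959 over the 10 pairs of animals, with the lowest value for Z15228 and Z15408. This is a description, since features are not independent replicates and all pairs share the features' own levels. The first principal component held 32.9% of the variance and set Z15408 (score 51.9) against Z15228 (score -36.4). The second held 26.2% and set Z13076 (42.1) against Z15339 (-38.8). The fourth, with 19.9%, was mostly Z15303 (-43.8). Of the 12698 features, 21.0% were highest in Z15228, 17.5% in Z13076, 18.4% in Z15339, 15.9% in Z15303 and 27.3% in Z15408. The lowest value was in Z15228 for 22.0%, in Z13076 for 18.8%, in Z15339 for 17.1%, in Z15303 for 14.4% and in Z15408 for 27.8%. These shares, and the 7.88% of features with a 4-fold range, are the background for the gene lists that follow. At mean counts of 10 to 50 the 4-fold share was 24.95%, so 7.88% is too low a background for members with few counts. For each list, only members with a mean count of at least 10 are counted, and in this mixture fewer cells of a type cannot be told apart from less RNA per cell.

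T cell genes were the steadiest of the cell type lists by their list mean. Of 14 T cell genes, all of them counted, 1 (7.14%) had a 4-fold range, against 7.88% of all features, and the mean log2 CPM of the list differed by 1.11-fold between the highest and lowest animal. The median SD of the members was 0.22, below the median of 0.31 over all features. TRAC, the constant region of the T-cell receptor alpha chain, was at 480.2, 444, 450.4, 463 and 378 CPM, with no animal far from the others. CD3D, a chain of the CD3 complex, was at 553, 576, 457, 536 and 318 CPM and lowest in Z15408. LCK, the kinase that starts receptor signalling, was at 1163, 1532, 1382, 1073 and 968 CPM.

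The exception was CD3E, another CD3 chain, at 25.4, 15.2, 16.4, 72.9 and 65.9 CPM. Z15303 and Z15408 were high and the other 3 animals low, with a range of 4.79-fold. CD3D and CD3G did not share this order, and CD3G was lowest in Z15408, at 90.2 CPM. Among co-receptors, CD4 was at 154, 202, 174, 153 and 192 CPM, a narrow range, and CD8A at 391, 292, 297, 223 and 161 CPM, highest in Z15228 and lowest in Z15408. Genes of naive and central memory T cells, which home to lymph nodes, were similar in all animals, and 0 of 6 had a 4-fold range. CCR7, the homing receptor, was at 635, 546, 704, 756 and 786 CPM, and LEF1, a transcription factor of naive cells, at 218, 158, 272, 305 and 309 CPM. Of 6 regulatory T cell genes, 0 had a 4-fold range, and FOXP3, their defining factor, was at 17, 16.5, 13.3, 24 and 18.4 CPM.

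Cytotoxic genes, which NK cells and killer T cells share, were highest in Z13076 and lowest in Z15408. Of 22 counted of 26 listed, 14 were highest in Z13076 and 13 lowest in Z15408, against 17.5% and 27.8% of all features, and 3 (13.6%) had a 4-fold range. PRF1, the pore-forming perforin, was at 543, 975, 677, 544 and 380.1 CPM, and NKG7, a granule membrane protein, at 755, 1214, 708, 656 and 409 CPM. Z13076 was above and Z15408 below the other 3 for both genes. GNLY, granulysin, went another way, at 1007, 814, 1842, 749 and 423 CPM, with Z15339 highest. GZMA, granzyme A, was at 93.5, 216, 107, 135 and 49.5 CPM. Without Z15408, 1 of the 22 genes had a 4-fold range.

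NCAM1, which encodes the NK marker CD56, had the widest range of the list, 20.5-fold. It was at 15.8, 59.6, 32.5, 2.92 and 25.6 CPM, with Z15303 far below the other 4. KLRD1, which encodes CD94, was also lowest in Z15303, by less, at 236, 241, 171, 87.6 and 150.0 CPM. Of the 22 genes, 6 were lowest in Z15303, against 14.4% of all features. KLRF1 was not lowest there, at 40.8, 39.6, 48, 41.2 and 55.1 CPM. NCR1, the receptor NKp46, was at 29.1, 26.3, 13.1, 9.42 and 10.2 CPM. It was lowest in Z15303, just below Z15408, and high in Z15228 and Z13076. KIR2DL4, an inhibitory and activating receptor of NK cells, was at 112, 105, 66, 51.5 and 49.9 CPM, with the same pair of animals high. Of the 5 KIR and LILR receptor genes counted, 0 had a 4-fold range.

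Most B cell genes were highest in Z15228 and lowest in Z13076. Of 20 counted of 23 listed, 9 (45.0%) had a 4-fold range, against 7.88% of all features, and the median SD was 0.72. Of these genes 13 were highest in Z15228 and 15 lowest in Z13076, against 21.0% and 18.8% of all features. MS4A1, which encodes CD20, was at 192, 33, 75.7, 42.7 and 44.5 CPM. Z15228 was above and Z13076 below all others. CD79A, a signalling chain of the receptor, was at 398, 89.9, 264, 178 and 96.5 CPM, with Z15339 the second highest.

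Wide ranges in the B cell list included those of EBF1, a transcription factor of the lineage, with 8.78, 1.03, 5.4, 2.92 and 2.6 CPM, FCRL5 and TNFRSF13B. FCRL5, a receptor of memory B cells, was at 33.1, 4.01, 9.12, 5.05 and 6.79 CPM, and TNFRSF13B, which encodes the receptor TACI, at 35.8, 5.15, 18.8, 4.82 and 4.98 CPM. These genes were several times higher in Z15228 than in any animal but Z15339, and CR2, the complement receptor CD21, was not, at 16.3, 15.1, 20.4, 15.4 and 19.7 CPM. Among the 3 animals of the same date 0 of the 20 genes had a 4-fold range, against 4.25% of all features. Without Z15228 the 4-fold count over the other 4 animals was 3, and without Z13076 it was 5.

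Plasma cell genes had another order. Of 8 counted of 10 listed, 5 were highest in Z15339, against 18.4% of all features, and 3 (37.5%) had a 4-fold range. JCHAIN, which joins immunoglobulin units, was at 335, 113, 709, 118 and 109 CPM, with Z15339 highest and Z15228 next, and the other 3 close together. MZB1, a chaperone of antibody secretion, was at 31.3, 12.9, 52.6, 8.19 and 6.67 CPM, TNFRSF17, which encodes the plasma cell receptor BCMA, at 6.4, 1.37, 11.3, 1.79 and 2.83 CPM, and TXNDC5, an endoplasmic reticulum isomerase, at 48.6, 35, 132, 33.3 and 45.4 CPM. SDC1, which encodes CD138, did not reach a mean count of 10. The 3 animals of the same date alone gave 3 genes with a 4-fold range.

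Summed over the 11 immunoglobulin features counted, levels were 1128, 355, 1576, 386 and 350.2 CPM, with Z15339 and Z15228 above the other 3 animals. IGKC, the kappa constant region, had 9760, 2779, 11984, 3111 and 2762 counts, with Z15228 and Z15339 well above the other 3 animals. Of 11 immunoglobulin features counted, found by their symbols after the values were seen, 10 had a 4-fold range against 7.88% of all features. Of the 11, 7 were highest in Z15228 and 4 in Z15339, against 21.0% and 18.4% of all features. IGKV6D-41, with 8, 18, 38, 9 and 23 counts, and IGHV1-69-2, with 39, 96, 211, 94 and 94 counts, were high in Z15339 but lowest in Z15228. IGLV11-55, a lambda variable segment, had 263, 0, 226, 12 and 21 counts, so it was undetected in Z13076 at a total of 9060148 counts. IGLV3-25 had 89, 0, 0, 8 and 0 counts, with Z15228 the only animal above 8. IGHV3-72, a heavy chain variable segment, had 162, 5, 132, 16 and 62 counts, and IGLV3-1 had 13, 3, 112, 42 and 11, with Z15339 highest. Segments of a family are close in sequence, so the counts of single segments are uncertain.

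T-cell receptor variable segments differed from animal to animal, while TRAC, with far more counts, was nearly level. Of 33 segments counted, chosen by symbol after the values were seen, 8 had a 4-fold range against 7.88% of all features, and the median SD was 0.61. Many of the segments had mean counts of 10 to 50. In that class 24.9% of features had a 4-fold range and the median SD was 0.56, so low counts may hold much of this spread. TRBV28 had 32, 197, 33, 39 and 27 counts and TRAV10 had 38, 194, 14, 38 and 34, and in both Z13076 was far above the other 4 animals. TRBV10-3 had 320, 111, 21, 24 and 19 counts, highest in Z15228 and next in Z13076. TRBV19 had 127, 95, 107, 127 and 107 counts and TRBV27 had 256, 195, 277, 241 and 186, with ranges of 1.31-fold and 1.58-fold. The segment counts summed to 290.1, 254.7, 245.5, 281.4 and 199.98 CPM, a narrower range than that of many single segments. Of the 33 segments, 15 were highest in Z15303, against 15.9% of all features. In Z13076 and Z15408, 13 each were lowest, against 18.8% and 27.8%.

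**Figure D3:**
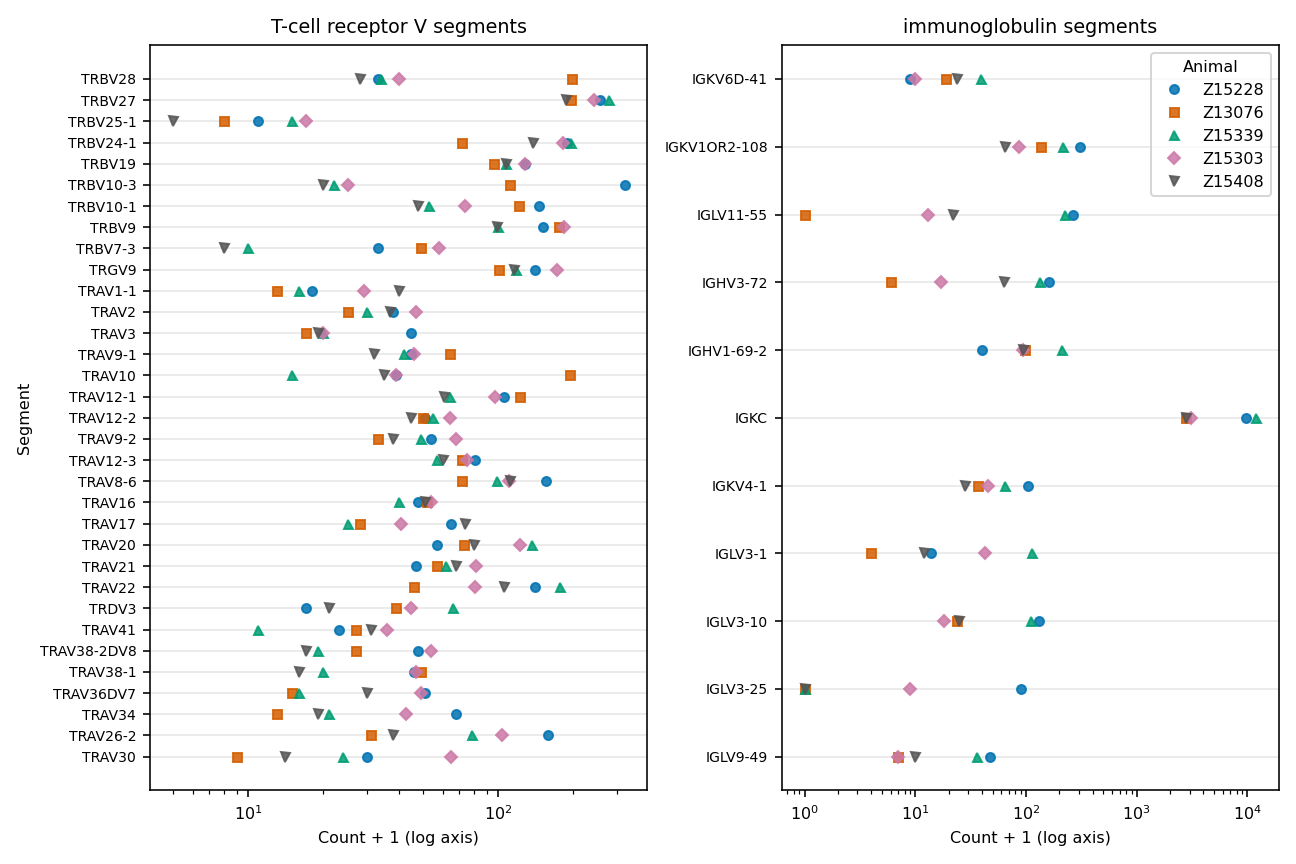
Counts plus 1 (log axis) of the receptor segments named in the table, with 1 point per animal, for 33 T-cell receptor segments (left) and 11 immunoglobulin features (right). TRBV28 and TRAV10 are highest in Z13076, TRBV10-3 in Z15228, and IGLV11-55 has 0 counts in Z13076.

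Classical monocyte genes were lowest in Z15339. Of 18 counted of 20 listed, 13 were lowest there, against 17.1% of all features, and 3 (16.7%) had a 4-fold range. S100A8 and S100A9 encode the subunits of calprotectin. S100A8 was at 202, 182, 40.6, 115 and 165 CPM and S100A9 at 316, 249, 49.1, 124 and 169.9 CPM. CD14, the co-receptor for bacterial lipopolysaccharide, was at 572, 881, 238, 544 and 401 CPM, and LYZ, lysozyme, at 1351, 1427, 462, 1019.8 and 1049.7 CPM. In each of these genes Z15339 was below the other 4 animals. CSF1R, the receptor that keeps monocytes alive, went another way, at 446, 852, 962, 1157 and 778 CPM, with Z15228 lowest. Without Z15339, 0 of the 18 genes had a 4-fold range among the other 4 animals.

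Genes of nonclassical monocytes, which patrol the vessel wall, were lowest in Z15408. Of 5 counted of 7 listed, 4 were lowest there, against 27.8% of all features. C1QB and C1QC encode chains of complement C1q, and C1QB was at 106, 56.4, 108, 116 and 14 CPM. C1QC was at 83.9, 42.6, 95.3, 84.8 and 13 CPM. Z15408 was well below the other 4 in both, and Z13076 was between. MS4A7 was at 130.5, 154, 121, 225 and 68.1 CPM, with the same animal lowest and Z15303 highest. Without Z15408, 0 of the 5 genes had a 4-fold range.

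Genes of conventional dendritic cells, the main cells that prime T cells, were highest in Z15228. Of 9 counted of 10 listed, 8 were highest there, against 21.0% of all features, and 5 (55.6%) had a 4-fold range. CLEC9A and XCR1 mark the subset that takes up dead cells. CLEC9A was at 17.4, 3.66, 0.48, 1.57 and 1.13 CPM and XCR1 at 7.44, 0.687, 1.92, 0.561 and 0.792 CPM, and Z15228 was above every other animal for both. CADM1 was at 17.3, 5.84, 4.8, 2.69 and 3.17 CPM and FLT3, the growth factor receptor of the lineage, at 37.5, 19.2, 8.4, 17.6 and 18.3 CPM. CD1C, a marker of the other subset, differed less, at 151, 74.2, 94, 38.2 and 134 CPM, and FCER1A was at 20.8, 11.6, 17.4, 15.5 and 19.8 CPM. Among the 3 animals of the same date 1 of the 9 had a 4-fold range, and without Z15228 it was 2. CLEC9A rested on few counts outside Z15228, 168, 32, 4, 14 and 10, and so did XCR1.

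Genes of plasmacytoid dendritic cells, the main makers of type I interferon, had no common order. Of 8 counted of 10 listed, 3 had a 4-fold range, against 7.88% of all features. LILRA4, the receptor ILT7, was at 54.2, 92.3, 42.9, 62.7 and 24.4 CPM and TCF4, a transcription factor of the lineage, at 60.0, 27.2, 40.3, 39.5 and 34.7 CPM. SMPD3 was at 4.34, 2.17, 11.8, 16.6 and 5.66 CPM and PTCRA at 21.6, 9.62, 22.1, 2.02 and 5.09 CPM, with different animals high. LAMP5, a further marker, had 0 counts in 4 animals.

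Genes of cells outside the mononuclear fraction were present in all libraries and differed between animals. Of 14 platelet genes counted of 15 listed, 7 had a 4-fold range, against 7.88% of all features. Of the 14, 10 were highest in Z15303 and 10 lowest in Z15408, against 15.9% and 27.8% of all features. PF4, a platelet chemokine, was at 1008, 430.2, 540.5, 649 and 335 CPM, and ITGA2B, the alpha chain of the fibrinogen receptor, at 716, 519.8, 917, 1378 and 526 CPM. NRGN was at 594, 759.5, 1056, 1514 and 304 CPM and CLU at 52.4, 52.9, 77.8, 119 and 15.8 CPM, with Z15303 highest and Z15408 lowest in both. The summed platelet genes ranged from 4445 to 10933 CPM, with a median of 7645 CPM. PF4, PPBP and CLEC1B were highest in Z15228, and SPARC, at 1.34, 13.1, 1.56, 1.79 and 1.02 CPM, was high in Z13076 alone. The other 4 lowest values were in Z13076. The 4-fold count was 4 without Z15303 and 3 without Z15408. The part of platelet RNA in the other values was not tested.

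Red cell genes had the largest median range of any list, 10.4-fold against 1.70-fold over all features. Of 6 counted of 14 listed, 5 (83.3%) had a 4-fold range and 5 were highest in Z15228, against 7.88% and 21.0% of all features. ALAS2, the enzyme that starts haem synthesis in red cell precursors, was at 769, 125, 34.9, 243 and 57.9 CPM. SLC4A1, the band 3 anion exchanger, was at 7.85, 1.95, 0.36, 2.8 and 1.36 CPM, and HEMGN, a nuclear protein of erythroid cells, at 24, 9.16, 6.84, 13.5 and 3.28 CPM. Outside the list, HBM, a globin gene of the alpha cluster, was at 31.7, 2.06, 0.36, 4.15 and 0.905 CPM. Z15228 was highest in each of these, and without it 3 of the 6 genes had a 4-fold range. The 7 listed red cell genes found by symbol summed to 52.6 to 854.2 CPM, with a median of 160.4 CPM. The listed globins HBB, HBA1, HBA2, HBA and HBD were not found by symbol. The sum therefore leaves them out and does not measure all red cell RNA. The part of red cell RNA in the other values of Z15228 was not tested.

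Neutrophil genes were low but present. Of 11 counted of 16 listed, 3 had a 4-fold range, against 7.88% of all features. These were CAMP, at 100, 191, 53.5, 109 and 42.2 CPM, MPO and ORM1, all lowest in Z15408. ORM1 had at most 16 counts in any library. The summed list ranged from 267.5 to 533.3 CPM, with a median of 432.4 CPM. AZU1, azurocidin, was at 138, 61.5, 59.3, 187 and 51.9 CPM and LTF, lactoferrin, at 19.3, 16.8, 15.7, 54.2 and 17 CPM, both highest in Z15303. Of the 11 genes, 5 were highest in Z15303, against 15.9% of all features, and 3 each in Z13076 and Z15408. CAMP and ORM1 were highest in Z13076. The 4-fold count was 1 without Z13076 and 0 without Z15408. CSF3R, which monocytes also express, was at 155, 199, 122, 156 and 215 CPM. MMP8 and ELANE, both made by neutrophil precursors, stayed below a mean count of 10. Of 7 basophil and mast cell genes, 4 were counted, and 3 of these, HDC, CPA3 and CLC, had at most 33 counts in any library. CPA3, mast cell carboxypeptidase, had 1, 2, 26, 11 and 16 counts, and HDC, the enzyme that makes histamine, had 2, 7, 16, 17 and 12 counts, both lowest in Z15228. The other, GATA2, a transcription factor that blood progenitors also use, was at 22.8, 16, 31.7, 31.9 and 17.8 CPM.

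**Figure D4:**
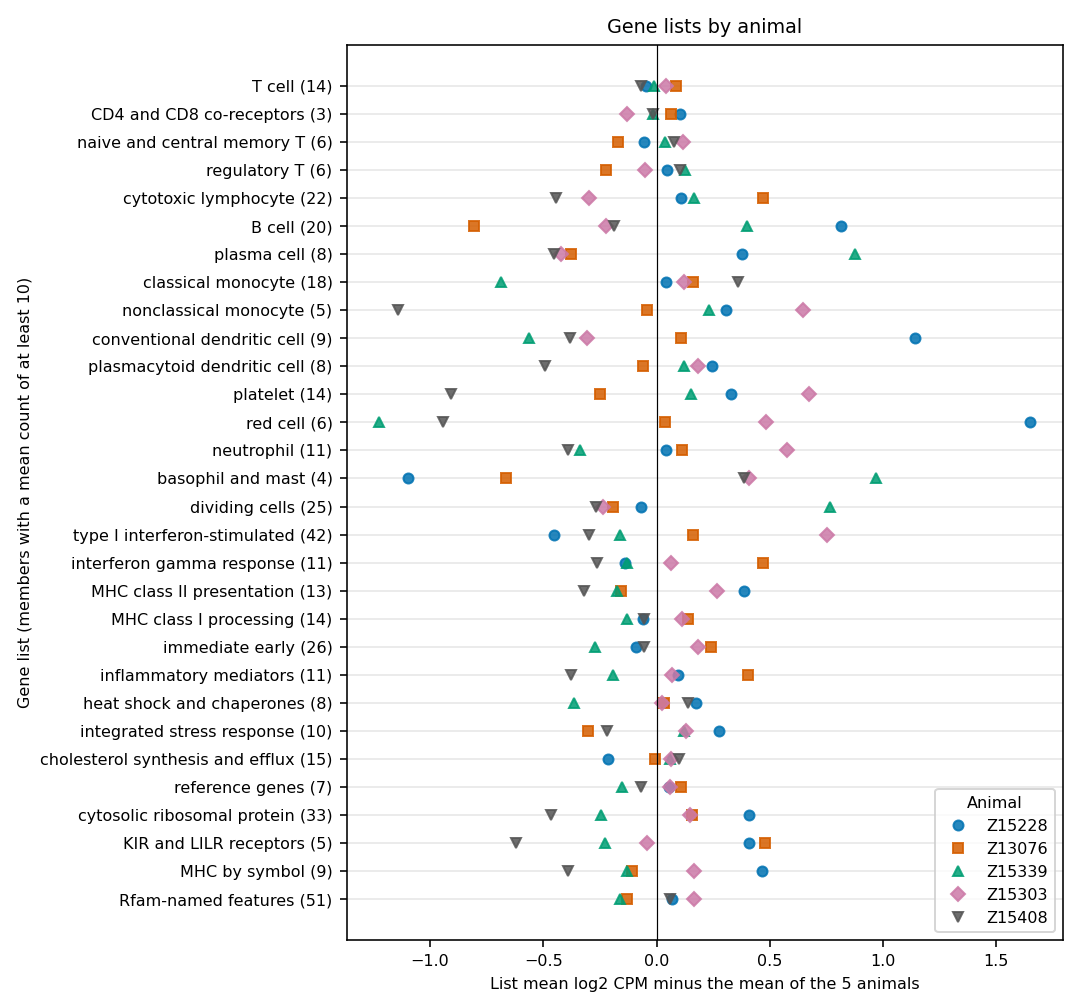
Mean log2 CPM of each gene list in each animal, minus the mean of the 5 animals, with the number of members counted in brackets. The T cell points lie close to 0, while red cell, conventional dendritic cell and B cell points spread widely with Z15228 at the right, and Z15408 lies at the left for platelet, nonclassical monocyte and ribosomal genes.

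Most type I interferon genes were highest in Z15303. Type I interferon switches on antiviral genes in most cells. Of 42 counted of 47 listed, 12 (28.6%) had a 4-fold range, against 7.88% of all features, 27 were highest in Z15303 and 19 lowest in Z15228, against 15.9% and 22.0%. IFI6, an antiviral protein of the endoplasmic reticulum, was at 161, 343, 220.0, 1384 and 113 CPM, and MX1, a GTPase that blocks viral ribonucleoproteins, at 90.9, 195, 183, 648 and 72.4 CPM. Z15303 was several times above all other animals in both.

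The other effectors shared that order in part. ISG15, a ubiquitin-like modifier, was at 15.6, 34.1, 21.1, 83 and 10.4 CPM and HERC5, its ligase, at 4.55, 8.59, 10.4, 33 and 10.1 CPM. IFIT3, an RNA-binding effector, was at 22.1, 39.3, 32.5, 97.5 and 19.1 CPM, and OAS1, the sensor that activates RNase L, at 88.5, 122, 53.1, 234 and 44.1 CPM. SIGLEC1, a monocyte lectin that interferon induces, was at 0.826, 4.35, 2.28, 7.63 and 2.15 CPM. Z15303 was highest in each and Z13076 was above Z15228, and the spread was 7.97-fold for ISG15 and 5.3-fold for OAS1. IFIH1, an RNA sensor, was at 24.1, 34.1, 28, 46.4 and 38.1 CPM, highest in Z15303 as well, while IRF7, the factor that amplifies the response, was at 28.1, 86.4, 33.7, 70.8 and 29.1 CPM, with Z13076 above Z15303. Without Z15303, 1 of the 42 genes had a 4-fold range, and 8 had it among the 3 animals of the same date, of which Z15303 is 1.

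Genes of the interferon gamma response were highest in Z13076. Of 11 counted of 18 listed, 8 were highest there, against 17.5% of all features, and 0 had a 4-fold range. GBP3, a guanylate-binding protein, was at 175, 508, 201, 335 and 246 CPM, IRF1, the factor that carries the response, at 411, 805, 453, 469 and 409.8 CPM, and TAP1, the peptide transporter of class I presentation, at 489.7, 786, 518, 519 and 450.2 CPM. Z13076 was above the other 4 in each. CXCL9 and CXCL11, chemokines of the same response, stayed below a mean count of 10.

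Dividing-cell genes stood out in Z15339. Of 25 counted of 26 listed, 23 were highest there, against 18.4% of all features, and 3 (12.0%) had a 4-fold range, against 7.88%. These 3, CCNB2, UBE2C and CDC20, had mean counts of 10 to 50, a class where 24.95% of features had such a range. MKI67, the marker of cycling cells, was at 21, 13.1, 37.6, 15.5 and 23.1 CPM, RRM2, a subunit of ribonucleotide reductase, at 21, 14.8, 42.6, 13.6 and 20.6 CPM, and MCM2, a subunit of the replicative helicase, at 31.8, 31.1, 62.8, 30.6 and 22.2 CPM. PLK1, a mitotic kinase, was at 6.82, 4.92, 16.9, 6.39 and 7.92 CPM, and KIF11, a spindle motor, at 2.89, 3.09, 10.8, 4.15 and 4.41 CPM. Z15339 was above the other 4 animals in each of these. The other members were AURKB, highest in Z13076, and CENPF, highest in Z15408 with 6.82, 2.29, 5.64, 7.63 and 8.6 CPM. The mean of the list was 2.04-fold higher in Z15339 than in the lowest animal. Without Z15339 or without Z15408, 0 of the 25 genes had a 4-fold range.

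**Figure D5:**
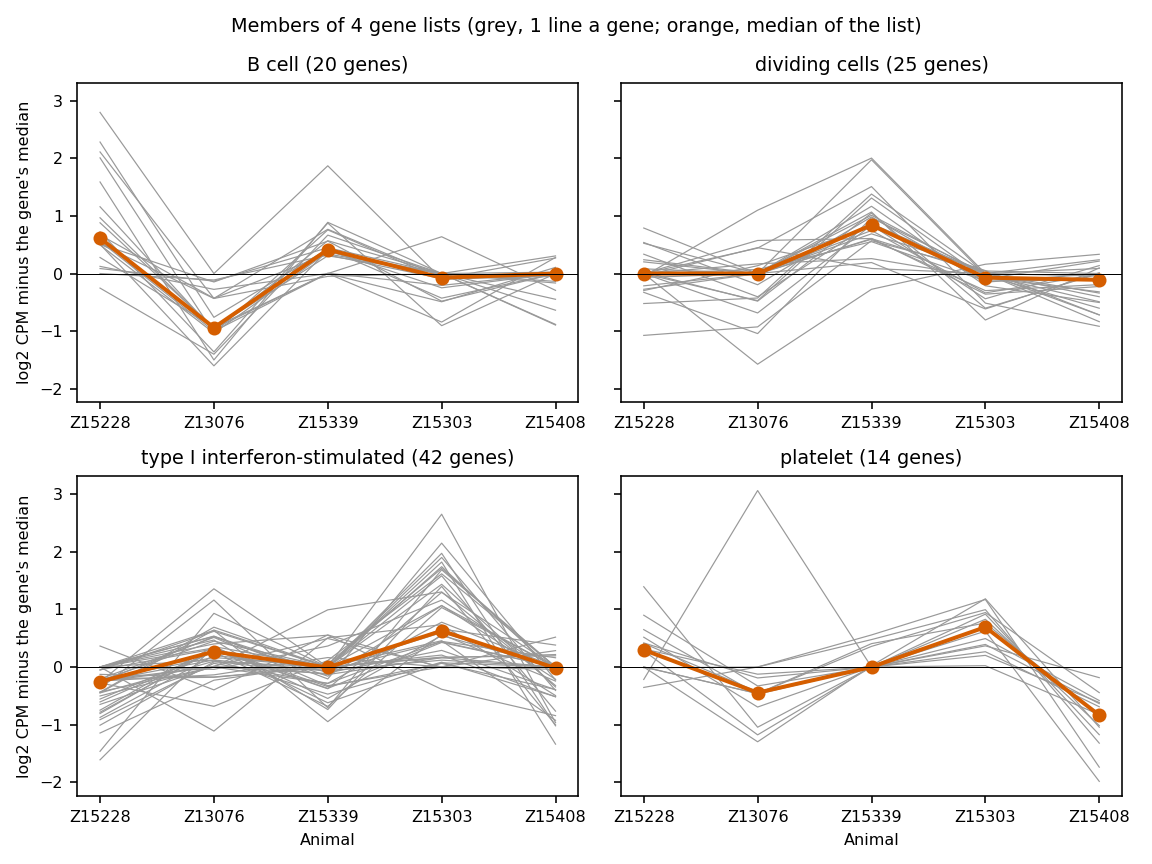
log2 CPM of each gene minus that gene's median over the 5 animals, by animal, for the B cell, dividing-cell, type I interferon and platelet lists, with each gene as a grey line and the list median in orange. Most B cell lines dip in Z13076, most dividing-cell lines peak in Z15339, many interferon lines peak in Z15303, and most platelet lines are lowest in Z15408, while SPARC alone peaks in Z13076.

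Antigen presentation genes did not share an order. Of 13 MHC class II genes counted of 26 listed, 3 had a 4-fold range, against 7.88% of all features. HLA-DPB1, the beta chain of HLA-DP, was at 921, 1078, 213, 608 and 335 CPM, while its partner HLA-DPA1 was at 1278, 1430.4, 715, 1034 and 941 CPM. HLA-DQB1 was at 183, 68.6, 253, 312 and 99.5 CPM, highest in Z15303, and HLA-DOB, which regulates peptide loading in B cells, at 71.3, 18.1, 78.3, 67.7 and 74 CPM, with Z13076 alone low. HLA-DRA was at 3684, 2538, 1709, 2148 and 2062 CPM and CIITA, the switch for class II genes, at 40.1, 40.3, 42.9, 37.2 and 57.6 CPM. These genes have close relatives, so their counts are uncertain. Without Z13076, 1 of the 13 had a 4-fold range. Among the 3 animals of the same date, 0 of the 13 genes had a 4-fold range.

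Of 14 class I processing genes counted of 15 listed, 1 (7.14%) had a 4-fold range, against 7.88% of all features. This was TAPBP, tapasin, which holds class I molecules at the peptide transporter, at 52.3, 64.3, 55, 219 and 289.9 CPM. Z15303 and Z15408 were high and the other 3 low, the same split as for CD3E. B2M was at 18338, 16899, 13014, 18038 and 16270 CPM and PSMB8, an immunoproteasome subunit, at 464, 566, 418, 497 and 318 CPM, without that split.

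Immediate early genes are those that cells switch on soon after a stimulus or handling. Of 26 counted of 29 listed, 1 (3.85%) had a 4-fold range, against 7.88% of all features, and the median range was 1.74-fold, against 1.70-fold. The gene with the 4-fold range was IER3, at 2.27, 5.15, 1.2, 6.28 and 1.36 CPM, and without Z15303 there was 0. FOS, the first transcription factor made after stimulation, was at 937, 905, 884, 919 and 1195 CPM and DUSP1, the phosphatase that ends kinase signalling, at 1953, 1766, 2003, 1959 and 2153 CPM. EGR1 was at 20.4, 29.9, 21, 70.4 and 62.8 CPM, with Z15303 and Z15408 high. Of the 26, 13 were lowest in Z15339, against 17.1% of all features, and 10 were highest in Z15303, against 15.9%.

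Inflammatory mediators were mostly low. Of 20 listed, 11 were counted, and IL1A, IL6 and CCL2 stayed below a mean count of 10. PTGS2, the inducible cyclooxygenase, was at 6.51, 5.72, 1.08, 2.24 and 22.2 CPM, with Z15408 far above the rest, and G0S2, an inhibitor of fat breakdown, at 6.82, 23, 30.7, 5.16 and 2.15 CPM, with Z15339 and Z13076 high. IL1B was at 13.9, 26.3, 12.6, 18.6 and 10.5 CPM and TNF at 13.1, 16.3, 11, 18.2 and 6.9 CPM, without an animal far apart.

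Of 8 heat shock and chaperone genes counted of 14 listed, 0 had a 4-fold range. Of the 8, 6 were lowest in Z15339, against 17.1% of all features. HSP90AA1 was at 490.0, 473, 268, 462 and 482 CPM. Of 10 genes of the integrated stress response, which cells start when amino acids run short, 3 had a 4-fold range, against 7.88% of all features. The count was 1 without Z15228 and 0 without Z13076. ASNS, asparagine synthetase, was at 64.9, 14, 40.6, 28.4 and 16.3 CPM and highest in Z15228, while ATF4, the factor of the response, was at 334, 235, 256, 309 and 197 CPM. Of 15 genes of cholesterol synthesis and efflux, 0 had a 4-fold range. INSIG1, a regulator of sterol synthesis, was at 176, 187, 186, 181 and 196 CPM.

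Most cytosolic ribosomal protein genes were highest in Z15228 and lowest in Z15408. Of 33 counted, 30 were highest in Z15228 and 26 lowest in Z15408, against 21.0% and 27.8% of all features. None of the 33 had a 4-fold range, the median range was 1.88-fold, against 1.70-fold, and the mean of the list differed by 1.83-fold. RPS14 was at 892, 801, 581, 789.6 and 337 CPM and RPL8 at 1585, 1248, 853, 1043 and 753 CPM. The 35 such genes found by symbol had a summed share of the counts, before scaling, of 0.962% in Z15408 to 1.52% in Z15228. Ribosomal protein genes without a symbol in the files are not in this share, so it is not the share of all of them. These 2 animals also had the largest and smallest scaling factors, and the part of library composition in this order was not tested. Of the Rfam-named features, small non-coding RNAs, 51 of 5271 reached a mean count of 10. Of these, 7 (13.7%) had a 4-fold range, against 7.88% of all features and 24.95% of those at mean counts of 10 to 50.

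The genes with the largest spread among those with a symbol and a mean count of at least 50 included several that are on none of the lists. MAB21L4 had 0, 83, 0, 202 and 0 counts, so Z15303 and Z13076 alone had any. TUBB4A, a neuronal beta-tubulin, had 7, 237, 2, 3 and 3 counts, with Z13076 alone high. NT5M, a mitochondrial nucleotidase, had 150, 110, 99, 239 and 1 counts, with Z15408 alone nearly without. E2F1, a transcription factor of the cell cycle, was at 162, 14.8, 18.5, 183 and 5.66 CPM, high in Z15228 and Z15303, an order that the dividing-cell genes did not share.

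Other members of this set split the animals in further ways. ACOT11, a fatty acyl-CoA hydrolase, was at 3.2, 102, 172, 75.5 and 128 CPM, FAM151A at 1.86, 35.9, 63.7, 28.9 and 48 CPM and SPIRE1, an actin nucleator, at 1.45, 21.6, 38.9, 18.3 and 29.4 CPM, all with Z15228 far below the other 4. SERHL2, a hydrolase, was at 12.9, 20.7, 124, 177 and 14.6 CPM, high in Z15339 and Z15303. NAIP, an inflammasome receptor for bacterial proteins, was at 6.2, 0.572, 1.2, 3.36 and 18.2 CPM, and SIGLEC6, a lectin of B cells and mast cells, at 8.37, 0.229, 1.32, 7.18 and 13.8 CPM, both highest in Z15408. FOLR2, a folate receptor of macrophages, was at 34.3, 5.04, 1.08, 4.26 and 16.7 CPM, with Z15228 highest, and ACKR1, a chemokine scavenger, at 1.86, 34.9, 18.5, 20.3 and 4.41 CPM, with Z13076 highest.

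Some features were on in an animal and off in another. With on as at least 50 counts and off as at most 3, 94 features qualified, and 56 of these had a symbol while the other 38 had only an Ensembl identifier. Of the 94, 43 were off in Z13076, 35 in Z15339, 30 in Z15408, 25 in Z15303 and 17 in Z15228. PRELP, a matrix protein, had 0, 214, 0, 0 and 0 counts and was detected in Z13076 alone. SMPDL3B had 107, 0, 0, 0 and 3 counts. ENSMNEG00000030635 had 280, 263, 0, 318 and 294 counts, with Z15339 alone at 0. At these totals a count of 0 allows up to 3 counts, or 0.310 to 0.360 CPM by library, from counting error alone.

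For each animal, the 8 genes with the largest gap to the nearest of the other 4 were picked, so every animal has such a set by construction. How large such gaps are by chance was not examined. In Z15228, RAB7B, an endosomal GTPase, was high at 23.8, 2.86, 1.8, 3.36 and 4.41 CPM. CHCHD6, a mitochondrial inner membrane protein, was high in Z13076 at 21.9, 250.3, 55.5, 63.5 and 63.1 CPM, and PDK4, a kinase that shuts pyruvate out of oxidation, was low there at 54.8, 6.52, 58.3, 32.9 and 41.7 CPM. In Z15339, CSTA, a cysteine protease inhibitor, was low at 13, 14.2, 3.84, 15.6 and 15.4 CPM, and CD1B, a lipid-presenting molecule, was low at 13.8, 20.7, 2.16, 10.3 and 10.3 CPM. CA13, a carbonic anhydrase, was low in Z15303 at 25.9, 27, 27.6, 1.57 and 11.7 CPM. Z15408 was high for FCN2, a lectin of complement activation, at 5.68, 4.81, 3.96, 5.94 and 21.6 CPM, and low for NENF at 44.4, 38.7, 32.3, 60.7 and 8.03 CPM.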

How the data were processed

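PBMC RNA of 5 macaques was measured by RNA-seq. Per the labels, RNA was extracted from lysed PBMCs and 10 ng went into SMART-Seq v4 amplification and Nextera XT libraries, which do not mark strand. The authors aligned reads with STAR 2.7.9a to Macaca nemestrina (Ensembl) and deposited raw counts per gene. Here, features with a mean count of at least 10 were scaled by TMM in edgeR 4.0.16 (R 4.3.3), with a prior count of 2 on the log2 scale. A 4-fold range means a log2 range of at least 2 on that scale. Median ranges, fold differences of list means and the gaps of genes with 2 levels are also on that scale, with the prior. Fold values of single genes are ratios of CPM without the prior, or against 3 counts where a library had 0. With 1 group there was no test. DESeq2 1.42.0 gave alternatives.

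Named genes were list members, the 20 largest mean shares, the 30 symbols with the largest SD at a mean count of at least 50, the 10 smallest at 200 or more, the 8 largest gaps per animal and the ends of the first components. The members and lists were chosen with earlier results of these data known. Receptor segments and genes with 2 levels were chosen after their values were seen. Intervals and floors cover counting error only, since PCR copies were not marked by molecular identifiers. Transcript lengths were not used here, so levels are not compared between genes. No mitochondrially encoded gene was found by symbol in the table. A few named genes are not reported here.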

Additional observations from a re-analysis of the deposited data

Results flagged for a closer look

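Each value here belongs to a library whose gap to its nearest neighbour was more than 0.71 of the range of all 5 libraries (Dixon's test at 95%). Genes were examined on CPM and lists on mean log2 CPM. On CPM, a library far below the others in fold can go unflagged, as Z15408 did for NT5M with 150, 110, 99, 239 and 1 counts. Chance gives such a gap in about 1 in 20 groups of 5 if values are normally distributed, which was not examined here. Of 128 values examined, 26 had one, but many of the 93 genes among them had been chosen for a large spread or a large gap, so that share is not comparable with chance. Of 30 gene lists, 2 had such a gap, near the 1 in 20 that chance gives.

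Both lists were set apart by Z15339. Its dividing-cell genes had a mean of 3.86 log2 CPM, against 2.83 to 3.02 in the other 4, and its heat shock and chaperone genes a mean of 5.85, against 6.24 to 6.39. In the same animal TXNDC5 was high at 132 CPM and CSTA low at 3.84 CPM.

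Z15228 was high for ENSMNEG00000042383 at 52754 CPM, against 2825 to 12505 in the others. The red cell genes ALAS2 (769 CPM) and HBM (31.7 CPM) were high in it, as were IGFBP6 (41.9 CPM), RAB7B (23.8 CPM), KIAA1211L (17.0 CPM) and IGLV3-25 (9.19 CPM). NIT1 was low in it at 33.0 CPM, but the others were at 34.3 to 34.8 CPM, so the gap is small in size.

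Z13076 was high for CHCHD6 (250 CPM), TUBB4A (27.1 CPM), PRELP (24.5 CPM), TRBV28 (22.6 CPM), TRAV10 (22.2 CPM) and ST8SIA6 (8.36 CPM).

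Z15303 was high for IFI6, at 1384 CPM against 112.7 to 343.2 in the others, for MX1 at 648 CPM and for HERC5 at 33.0 CPM. Z15408 was high for PTGS2 (22.2 CPM), FCN2 (21.6 CPM), PNLDC1 (19.5 CPM) and ADGRA2 (10.2 CPM), and low for OTOG at 5.77 CPM, where the others were at 19.5 to 21.0 CPM.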

How the results depend on the processing

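Counts of genes with a 4-fold range depended on the filter more than on scaling or prior. The 1001 features became 2024 of 19108 with no filter beyond 1 count, 375 of 10197 at a mean count of at least 50, 459 of 11625 by filterByExpr and 536 among the 3 animals of the same date scaled alone. Leaving out each animal gave 723 to 831. The coefficient of variation of 28.9% was 30.3% with no filter, 25.6% at a mean of at least 50, 25.7% by filterByExpr and 19.6% as DESeq2's gene-wise median, and leaving out each animal gave 26.7% to 30.0%, lowest without Z15408. The first component's 32.9% was 36.4% at a mean of at least 50 and 37.0% by filterByExpr, and 37.7% to 43.4% with 4 animals, where fewer components share the variance. The 94 on and off features became 348 with limits of 20 and 3 counts, 35 with 50 and 0, 31 among the 3 animals and 57 (without Z15228) to 83 without 1 animal (62 without Z13076). The share of the 50 leading features stayed within 1 SD, at 16.6% to 18.4%, under all alternatives run, including 1 chosen after seeing the data that leaves out ENSMNEG00000042383. Of 28 lists with at least 5 counted members, 17 had a larger 4-fold share than all features (15 to 19 under the alternatives run). Of 280 recomputed counts of list members, 242 stayed within 1.5 times. Without scaling, plasma cell, classical monocyte and dividing-cell lists had 5 genes each with a 4-fold range in place of 3. Causes were not tested. Leaving out mitochondrially encoded genes was not run, since none was found. No paired analysis was possible because each animal has 1 library in the group. At totals of 7909621 to 10379572 counts, genes under about 50 counts carry a wide counting error.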

Other observations

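A number of genes took 2 separate levels rather than a spread of values. With a gap of at least 2-fold between neighbours and each side within 2-fold, 248 of 10197 features at a mean count of at least 50 qualified, 86 of them splitting the animals 2 against 3 and 162 splitting them 1 against 4. This definition was chosen after the values were seen, and how many such features chance would give was not examined. HGD, homogentisate dioxygenase of tyrosine breakdown, was at 169.5, 16.4, 109, 97.7 and 23.9 CPM, with Z13076 and Z15408 low. OPRL1, the nociceptin receptor, was at 3.31, 19.3, 28.6, 31.4 and 16.2 CPM, with Z15228 alone low. With 1 library an animal, a lasting difference of the animal and a difference of the day cannot be told apart in these libraries.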
